A study of Arabidopsis thaliana with 6 samples.

Results

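Heat shock factors (HSFs) are the transcription factors through which plant cells switch on chaperone genes, and 10 of the HSF genes of Arabidopsis are described here, out of 32678 genes in the count table. They were picked by locus identifier, with earlier results of these data known. The 10 are the class A1 genes HSFA1A, HSFA1B and HSFA1D, the other class A genes HSFA2, HSFA4A, HSFA6B and HSFA8, and the class B genes HSFB1, HSFB2A and HSFB2B. Another 11 HSF genes of the family serve as comparison. Leaf transcripts were sequenced from wild-type Col-0 and from 35S:RPS4, in which the viral 35S promoter, active in most plant cells, overexpresses the immune receptor RPS4. Each genotype has 3 libraries. All plants grew at 28 °C for 3.5 weeks and were collected 2 h after transfer to 19 °C, a transfer that both genotypes went through and that releases RPS4 signalling held back by warmth. The comparison asks which transcripts the genotypes differ in at that hour, and no library from before the transfer or from another 35S:RPS4 line was analysed here.

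Class A HSFs carry an activation domain and switch on target genes by binding heat shock elements, short inverted repeats of the letters GAA and TTC. The class A1 factors are present without stress, are held inactive by chaperones, and start the heat response, in which HSFA2 is then made and prolongs it. Class B HSFs lack that activation domain and mostly act as repressors, and HSFB1, also named TBF1, is known for its part in the switch from growth to defence. Several class A factors have been tied to reactive oxygen, among them HSFA4A and HSFA8, so the family has known roles outside heat stress.

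The question of which sequences stand before these genes was addressed with the 300 bases upstream of each annotated gene start (genome TAIR10.1, RefSeq). Both strands were searched for the heat shock element, written as GAANNTTC or TTCNNGAA, where N is any base. The element TL1 (GAAGAAGAA, bound by HSFB1), the W-box (TTGACC or TTGACT, bound by WRKY factors), CGCGT (bound by CAMTA factors) and CCGAC (the core of the element bound by DREB factors) were searched for in the same windows. The windows of HSFA2, HSFA4A, HSFB2A and HSFB2B are shown because these are the genes among those raised in 35S:RPS4 that held a match. Matches are in capitals and each sequence runs 5′ to 3′ on the strand of its gene. HSFA2 lies at chr2:11135324-11135623 on the plus strand, HSFA4A at chr4:10349903-10350202 on the minus strand, HSFB2A at chr5:24915507-24915806 on the plus strand and HSFB2B at chr4:7042054-7042353 on the plus strand.
HSFA2: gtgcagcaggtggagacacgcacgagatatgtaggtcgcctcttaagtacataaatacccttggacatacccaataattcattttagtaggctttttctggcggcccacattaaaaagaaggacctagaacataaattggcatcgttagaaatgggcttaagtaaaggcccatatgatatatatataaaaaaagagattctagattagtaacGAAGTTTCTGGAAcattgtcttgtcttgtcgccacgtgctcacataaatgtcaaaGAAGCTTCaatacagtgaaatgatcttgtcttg
HSFA4A: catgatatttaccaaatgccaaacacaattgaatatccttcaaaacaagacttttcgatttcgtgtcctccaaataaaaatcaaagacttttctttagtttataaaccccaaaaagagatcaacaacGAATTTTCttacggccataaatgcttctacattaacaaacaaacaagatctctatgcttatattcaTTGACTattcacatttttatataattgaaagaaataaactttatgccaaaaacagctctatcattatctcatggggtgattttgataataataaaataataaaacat
HSFB2A: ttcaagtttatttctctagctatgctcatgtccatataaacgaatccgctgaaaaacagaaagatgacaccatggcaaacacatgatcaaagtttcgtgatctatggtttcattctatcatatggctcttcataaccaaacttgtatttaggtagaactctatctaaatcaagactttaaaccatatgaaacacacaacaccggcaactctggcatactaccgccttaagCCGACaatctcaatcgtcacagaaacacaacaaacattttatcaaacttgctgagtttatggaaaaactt
HSFB2B: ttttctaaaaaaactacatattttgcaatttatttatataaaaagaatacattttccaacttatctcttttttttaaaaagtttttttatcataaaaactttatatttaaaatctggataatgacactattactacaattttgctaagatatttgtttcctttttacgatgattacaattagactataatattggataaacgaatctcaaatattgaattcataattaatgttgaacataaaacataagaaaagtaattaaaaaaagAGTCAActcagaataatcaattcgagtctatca

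HSFA2 held 2 GAANNTTC matches, starting 88 and 33 bases before its gene start, and a TTCNNGAA match at 83 bases that overlaps the first of them. HSFA4A held 1 GAANNTTC at 173 bases and a W-box at 107 bases. HSFB2A held a CCGAC at 70 bases, and HSFB2B a W-box at 33 bases, read on the opposite strand. The windows of HSFA6B and HSFA8, which were raised too, and of HSFA1B, HSFA1D and HSFB1 held no match, and HSFA1A held a CCGAC at 119 bases. Such matches are frequent: GAANNTTC stood in 11.5% of the windows of 27443 protein-coding genes and in 2 of the 10 here, TTCNNGAA in 9.38% and 1 of 10, the W-box in 32.3% and 2 of 10, and CCGAC in 13.9% and 2 of 10. TL1 (4.96% of all windows) and CGCGT (7.89%) stood in none of the 10. The CAMTA core is CGyG, with y for C or T, and its CGTG form was not searched for. The absence therefore covers CGCGT only and not all CAMTA sites. Among the 11 other HSF genes, HSFA7A and HSFA7B each held 2 GAANNTTC matches.

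**Figure D1:**
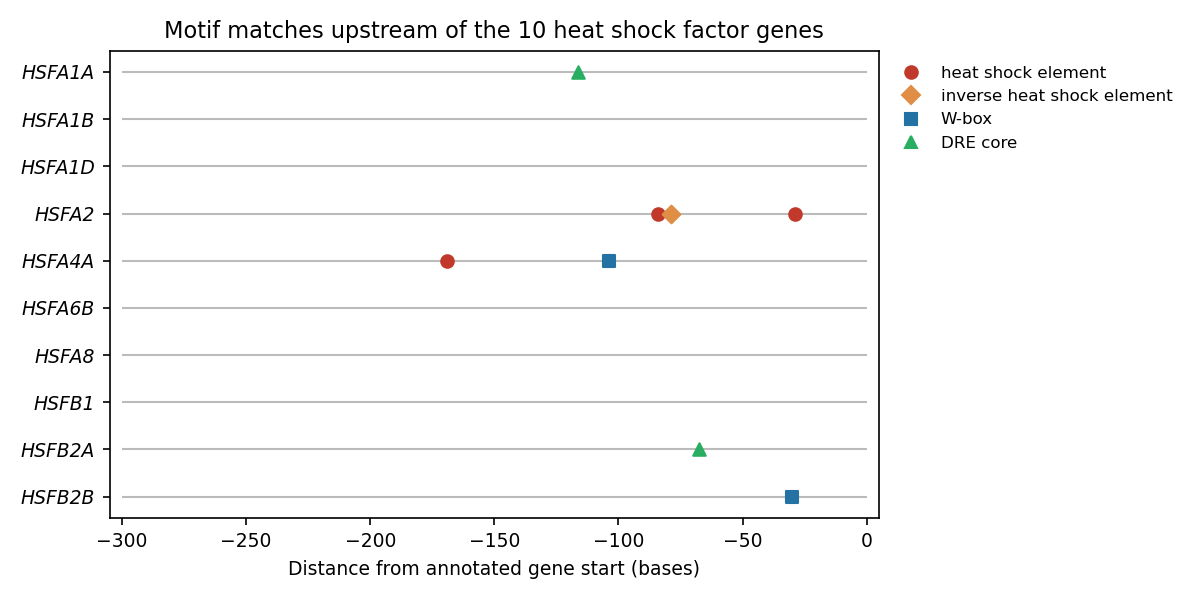
Motif matches in the 300 bases before the annotated start of each of the 10 HSF genes, with distance from the start in bases on the horizontal axis. HSFA2 has 2 heat shock elements in the usual form, 1 of them overlapping an inverse form, while 5 genes have no match.

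RPS4 itself was counted 668, 884 and 978 times in Col-0 and 18033, 22372 and 24807 times in 35S:RPS4 replicates 1 to 3, a rise of 4.81 on the log2 scale (SE 0.22, edgeR adjusted p = 3.25e-05). Depth was similar, at 28659022 to 31007551 gene counts in a library. All 6 leaf markers on the list (photosynthesis genes such as RBCS1A) were present, with a summed level of 52950 to 56667 CPM (counts scaled to a common library size) in Col-0 and 53098 to 61514 in 35S:RPS4. The 7 markers of root, flower, seed and pollen summed to 0.472 to 0.957 CPM in Col-0 and 0.335 to 0.645 in 35S:RPS4, with 1 and 2 of them at 0. Replicate 1 libraries of both genotypes deviated together from their group means.

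Of the 10 HSF genes, 9 had enough counts for the test, and 6 of these 9 rose in 35S:RPS4 while 0 fell. The test was the quasi-likelihood test of edgeR, calling a gene at an adjusted p below 0.01 and a log2 fold change (log2FC) beyond 1. Among all 18382 tested genes 7.83% were called by that rule, 6.46% as raised and 1.37% as lowered. Since the genes were picked with earlier results known, 6 of 9 is no unbiased share of the family. Of its 11 other genes 6 were tested, and 1 rose and 1 fell. HSFA2 and HSFA6B met the low-count filter through the 35S:RPS4 libraries alone, so among tested genes they had to be higher there. Of the 7 genes over the filter in every library 4 rose, with a median log2FC of 2.45. Over all 9 it was 3.36, with a range of -0.60 to 5.07, and over all tested genes 0.01. The 6 genes that rose were HSFA2, HSFA4A, HSFA6B, HSFA8, HSFB2A and HSFB2B, whereas the class A1 genes stayed outside the call. The DESeq2 Wald test and limma voom also gave 6 raised and 0 lowered, and at an unadjusted edgeR p below 0.05 7 genes were higher and 1, HSFA1A, was lower. In 7 of the 9 every 35S:RPS4 library lay above every Col-0 library, and in 1 every library lay below, against 17.9% and 16.3% of all tested genes. At an adjusted p below 0.05 with no fold limit, 7 of the 9 were higher and 1, HSFA1A, lower, against 10.5% and 6.26% of all tested genes. HSFA2 and HSFA6B, which the filter let in only as higher, are among the 7 in both counts. The others in both are HSFA1B, HSFA4A, HSFA8, HSFB2A and HSFB2B. In bulk leaves, a change in the number of cells that make a transcript and a change in the amount per cell cannot be told apart.

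**Figure D2:**
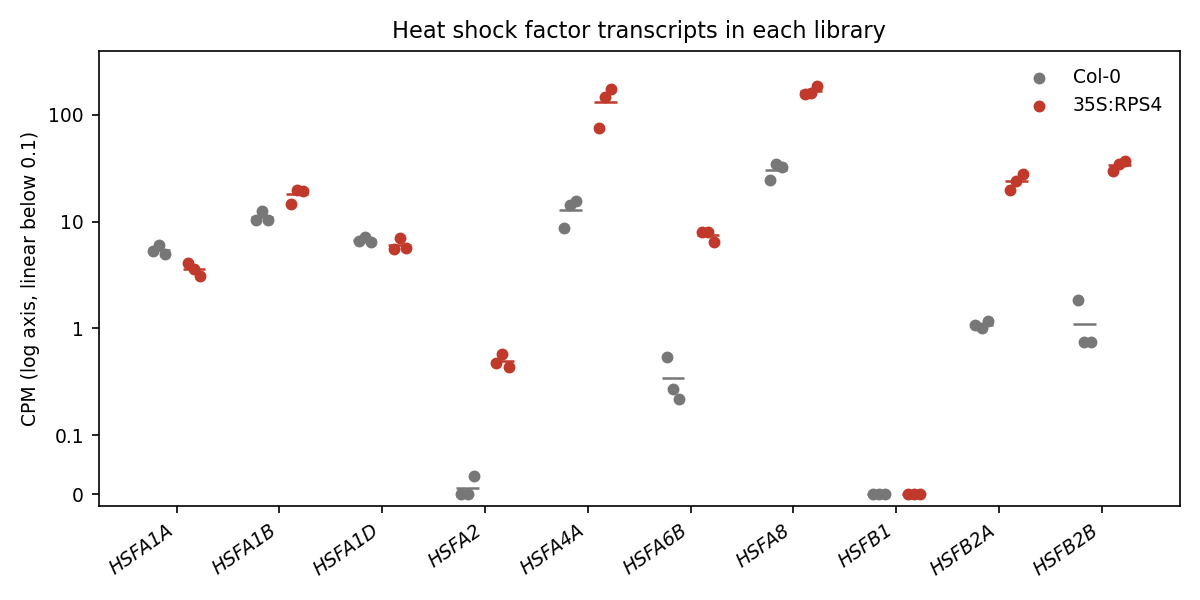
CPM of the 10 HSF genes in each of 3 Col-0 (grey) and 3 35S:RPS4 (red) libraries, with a horizontal line at each group mean; the vertical axis is logarithmic above 0.1 and linear below. All 35S:RPS4 libraries lie above Col-0 for HSFA1B, HSFA2, HSFA4A, HSFA6B, HSFA8, HSFB2A and HSFB2B, and below it for HSFA1A. The groups overlap for HSFA1D and lie at 0 for HSFB1.

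The class A1 genes, which stand first in the pathway, were not called. HSFA1A (AT4G17750, chromosome 4, 9869818 to 9871646, minus strand), a starter of the heat response, had 169, 181 and 160 counts in Col-0 and 122, 107 and 84 in 35S:RPS4. All 35S:RPS4 libraries were below all Col-0 libraries, at 3.60 ± 0.511 against 5.47 ± 0.589 CPM (SD, n = 3). The log2FC was -0.60 with an interval (95%) of -0.97 to -0.23 and an edgeR adjusted p of 0.0371, short of the call. HSFA1B (AT5G16820, chromosome 5, 5530195 to 5532889, plus strand) had 325, 370 and 339 counts in Col-0 and 440, 589 and 534 in 35S:RPS4. Here all 35S:RPS4 libraries were above, at 18.1 ± 2.89 against 11.1 ± 1.21 CPM. Its log2FC of 0.71 had an interval of 0.37 to 1.04 and an adjusted p of 0.0123, again short of the call. HSFA1B shares 44 bases with SYP21 on the opposite strand, a syntaxin gene with 423 to 512 counts in Col-0 and 494 to 718 in 35S:RPS4, and the library kit does not mark strand. HSFA1D (AT1G32330, chromosome 1, 11656964 to 11660471, minus strand) had 210, 212 and 209 counts in Col-0 and 164, 207 and 154 in 35S:RPS4. The groups of HSFA1D overlapped once scaled to library size, at 6.05 ± 0.844 CPM in 35S:RPS4 and 6.75 ± 0.357 in Col-0, with a log2FC of -0.16 and an interval of -0.47 to 0.15.

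HSFA2 (AT2G26150, chromosome 2, 11135624 to 11137792, plus strand), the class A factor best known for its strong induction by heat, had almost no reads in Col-0, with 0, 0 and 1 counts. The 35S:RPS4 libraries had 14, 17 and 12 counts. All 3 lay above Col-0, but at 0.495 ± 0.0724 CPM the transcript remained rare. With 43 counts against 1, the ratio of the pooled levels was 46.5, with a counting interval (95%) of 7.90 to 1877 that leaves out the spread between libraries. The fit gave a log2FC of 5.07 (SE 0.78, edgeR adjusted p = 0.00227), a size that depends on the prior count. HSFA2 did not pass when Col-0 replicate 2 was left out (log2FC 4.66, adjusted p = 0.0125), nor when this was done with Col-0 replicate 3 (6.89, 0.0124) or with 35S:RPS4 replicate 2 (4.95, 0.0132), and 5 HSF genes rose in those fits.

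HSFA4A (AT4G18880, chromosome 4, 10347479 to 10349902, minus strand), a factor phosphorylated by the immune kinases MPK3 and MPK6 and tied to oxidative stress, had 277, 430 and 501 counts in Col-0. In 35S:RPS4 it had 2265, 4330 and 4771. The groups were far apart, while replicate 1 was the lowest library in both. The level went from 12.9 ± 3.62 to 132 ± 50.8 CPM, a log2FC of 3.36 (SE 0.36, edgeR adjusted p = 0.000987). Replicate 1 had 0.473 of the mean level of replicates 2 and 3 in 35S:RPS4 and 0.586 in Col-0, and for RPS4 these ratios were 0.726 and 0.705; the part of the RPS4 level in that of HSFA4A was not tested.

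HSFA6B (AT3G22830, chromosome 3, 8078789 to 8081059, plus strand), which acts in abscisic acid signalling and drought, was rare in Col-0 with 17, 8 and 7 counts and had 241, 238 and 177 in 35S:RPS4. No library of one genotype came near the other. The level rose from 0.342 ± 0.173 to 7.54 ± 0.928 CPM, a log2FC of 4.45 (SE 0.29, edgeR adjusted p = 7.39e-05). HSFA8 (AT1G67970, chromosome 1, 25484449 to 25486512, minus strand) is a factor that enters the nucleus under oxidative conditions. Among the HSF genes with counts it was the most abundant per length in both genotypes. It had 780, 1038 and 1057 counts in Col-0 and 4699, 4721 and 5078 in 35S:RPS4. The 3 libraries of 35S:RPS4 were close to each other and all far above Col-0. From 30.8 ± 5.39 to 168 ± 15.5 CPM, its log2FC was 2.45 (SE 0.14, edgeR adjusted p = 6.1e-05), the smallest among the 6 genes that rose.

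Both class B genes with counts rose. HSFB2A (AT5G62020, chromosome 5, 24915807 to 24917643, plus strand), a repressor with a role in gametophyte development, had 34, 30 and 38 counts in Col-0 and 597, 707 and 764 in 35S:RPS4. The Col-0 libraries were nearly equal and every 35S:RPS4 library was far higher. The level went from 1.09 ± 0.0814 to 24.0 ± 3.95 CPM, a log2FC of 4.46 (SE 0.17, edgeR adjusted p = 1.07e-05). HSFB2B (AT4G11660, chromosome 4, 7042354 to 7044708, plus strand), which together with HSFB1 represses heat-inducible genes, had 58, 22 and 24 counts in Col-0 and 889, 1020 and 1015 in 35S:RPS4. Col-0 replicate 1 stood above the other Col-0 libraries but far below 35S:RPS4. Its level rose from 1.11 ± 0.633 to 33.8 ± 3.70 CPM, a log2FC of 4.93 (SE 0.31, edgeR adjusted p = 0.000106), which was 5.57 without both replicate 1 libraries. HSFB2B shares 308 bases with AT4G11670 on the other strand, which had 417 to 463 counts in Col-0 and 431 to 506 in 35S:RPS4, and 352 bases with AT4G05910, a noncoding gene that was not analysed here. Reads of such partners cannot be told from those of HSFB2B where strand is unknown.

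HSFB1 (AT4G36990, chromosome 4, 17440177 to 17442151, plus strand) was listed at 0 in all 6 libraries, and no level is drawn from this. The identifier next to it in the table, AT4G36988, which the reference does not hold, was at 0 as well. SAMDC, a gene of polyamine synthesis that every cell uses, had only 1 to 3 counts per library, and its neighbouring identifier AT3G02468, also absent from the reference, had 0. Of 235 protein-coding genes within 2 numbers of such an identifier, 103 (43.8%) had at most 3 counts over all libraries, against 6296 of all 26712 protein-coding genes in the table. The part of the counting in the value of HSFB1 was not tested.

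**Figure D3:**
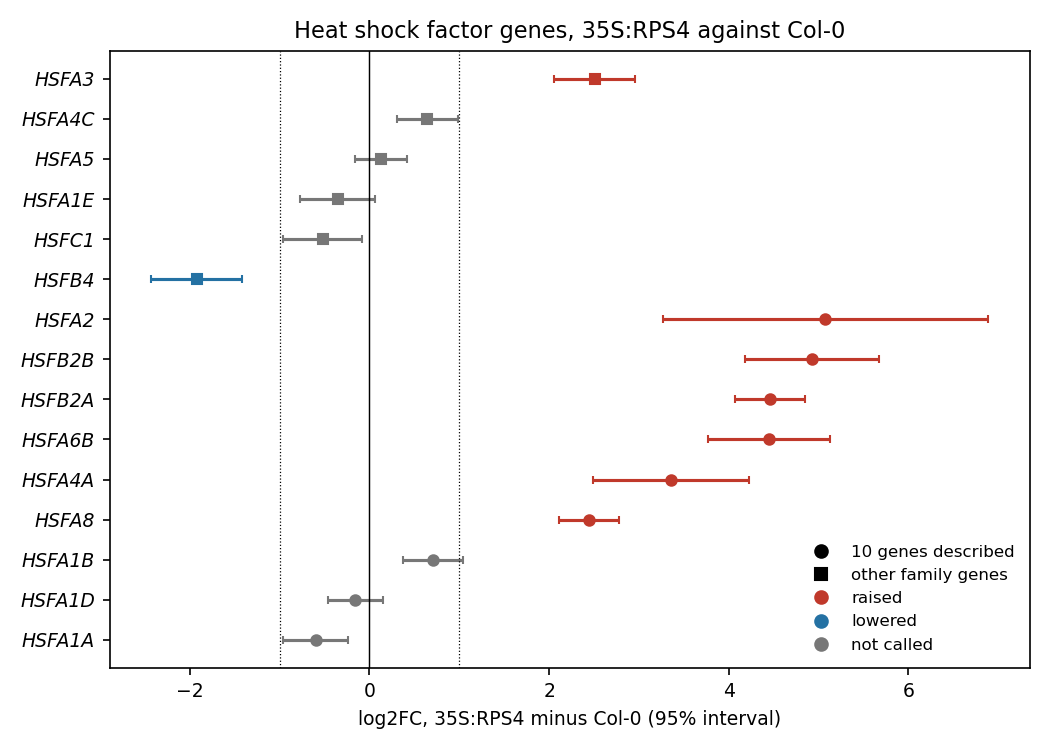
log2FC of 35S:RPS4 against Col-0 with its 95% interval for the 9 tested HSF genes described (circles) and 6 tested other family genes (squares), with dotted lines at -1 and 1. The 6 red circles lie between 2.45 and 5.07, and the class A1 genes between -0.60 and 0.71.

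To compare the genes with each other, counts were divided by the summed exon length of each gene (RPKM, CPM per kilobase). In Col-0 the order of the levels was HSFA8 with 17.9 ± 3.13 RPKM, HSFA1B with 5.52 ± 0.603, HSFA4A with 5.50 ± 1.54, HSFA1A with 3.25 ± 0.350 and HSFA1D with 3.23 ± 0.171. HSFB2A with 0.620 ± 0.0464, HSFB2B with 0.488 ± 0.279, HSFA6B with 0.217 ± 0.1096 and HSFA2 with 0.00549 ± 0.00950 followed. The libraries of HSFA1B and HSFA4A overlapped, as did those of HSFA1A and HSFA1D, of HSFB2A and HSFB2B, and of HSFB2B and HSFA6B. In 35S:RPS4 the order was HSFA8 with 97.6 ± 9.02 RPKM, HSFA4A with 56.4 ± 21.6, HSFB2B with 14.9 ± 1.63, HSFB2A with 13.7 ± 2.25 and HSFA1B with 9.01 ± 1.44. HSFA6B with 4.78 ± 0.589, HSFA1D with 2.90 ± 0.404, HSFA1A with 2.14 ± 0.304 and HSFA2 with 0.264 ± 0.0386 came after. There only HSFB2A and HSFB2B overlapped among neighbours. HSFA1B moved from the second to the fifth place, HSFA1A from the fourth to the eighth, and HSFB2B from the seventh to the third.

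The sum over the 10 genes was 31.4, 40.9 and 38.0 RPKM in Col-0 and 166, 206 and 233 in 35S:RPS4, with no overlap. The class A1 genes held 36.6%, 32.5% and 29.6% of that sum in the Col-0 libraries and 7.46%, 7.53% and 6.11% in 35S:RPS4. The other class A genes held 58.8%, 65.3% and 67.8% in Col-0 and 77.8%, 78.4% and 80.0% in 35S:RPS4. The share of class B, which here means HSFB2A and HSFB2B since HSFB1 was listed at 0, was 4.54%, 2.21% and 2.62% in Col-0 and 14.8%, 14.1% and 13.8% in 35S:RPS4. The genotypes did not overlap in any of these shares. The exact permutation test over libraries gave p = 0.1 for each, and p = 0.25 with libraries of the same number kept as pairs, in both cases the smallest two-sided value that 3 libraries per group allow. A share depends on the other genes in the sum: the summed level of the class A1 genes was 12.0 ± 1.10 RPKM in Col-0 and 14.0 ± 1.54 in 35S:RPS4, with groups that overlapped, so it was not lower where the share was. The summed level went from 23.63 ± 4.51 to 159 ± 28.7 RPKM for the other class A genes and from 1.11 ± 0.278 to 28.6 ± 3.87 for class B. With the other family genes added, class B in Col-0 was 6.57%, since HSFB4 then counts towards it, and 13.0% in 35S:RPS4.

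**Figure D4:**
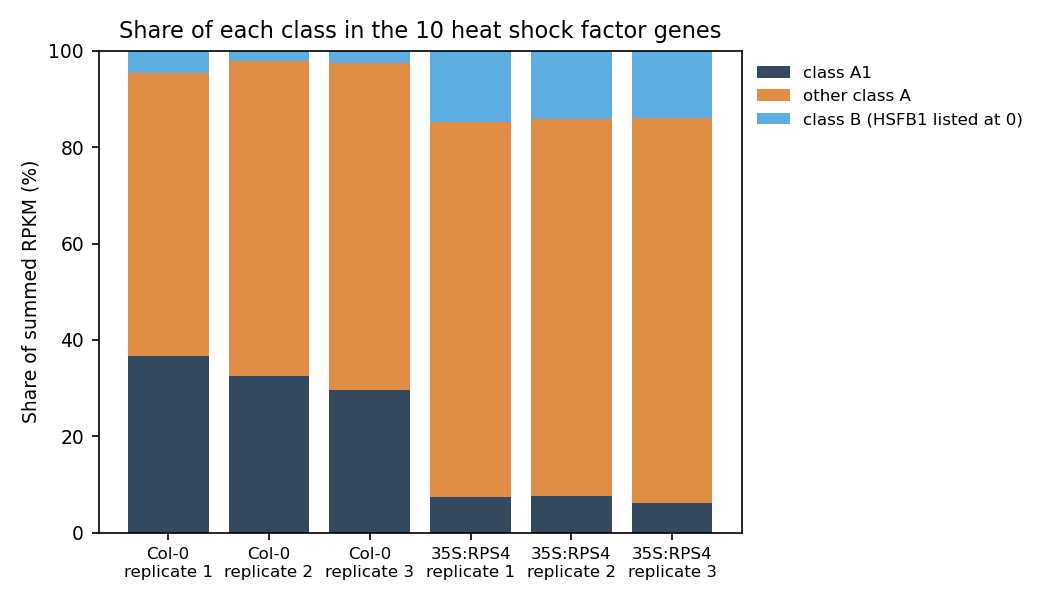
Share of the summed RPKM of the 10 HSF genes held by class A1, other class A and class B in each library, in percent. Class A1 takes 29.6 to 36.6% of each Col-0 bar and 6.11 to 7.53% of each 35S:RPS4 bar.

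Among the 11 other HSF genes 6 were tested, 1 rose and 1 fell (6.46% and 1.37% of all tested genes), with a median log2FC of -0.11. HSFA3, which extends the heat and drought response downstream of DREB2A, had 131, 144 and 181 counts in Col-0 and 643, 999 and 755 in 35S:RPS4. All 35S:RPS4 libraries were higher, with a log2FC of 2.51 (SE 0.19, edgeR adjusted p = 0.000157). HSFB4, also named SCHIZORIZA and known for root cell fate, had 113, 104 and 111 counts in Col-0 and 35, 25 and 20 in 35S:RPS4. It was the HSF gene that fell, to 0.918 ± 0.229 CPM in 35S:RPS4, with a log2FC of -1.92 (SE 0.22, edgeR adjusted p = 0.000777), while HSFB2A and HSFB2B of the same class rose. HSFA4C, the closest relative of HSFA4A, went from 142 to 174 counts in Col-0 to 202 to 252 in 35S:RPS4, a log2FC of 0.64 (interval 0.31 to 0.98, adjusted p = 0.0193) that was not called. HSFA1E (-0.35), HSFA5 (0.13), known to inhibit HSFA4 factors, and HSFC1 (-0.52) had adjusted p-values of 0.25, 0.571 and 0.115. The direction of HSFA5 turned under other scalings. HSFC1 shares 1808 bases with AT3G24518 on the opposite strand, which had 31 to 66 counts. HSFA6A, HSFA7A, HSFA7B, HSFA9 and HSFB3 had too few counts to test. HSFA7A, which heat induces, had 21 counts in all of Col-0 and 31 in all of 35S:RPS4, and HSFA7B had 0 in all 6.

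The chaperone genes that HSFs switch on in heat were read from lists by class, and the DESeq2 Wald test lowered 0 genes in each of the chaperone, co-chaperone, target and ER lists that follow, as edgeR did. At an edgeR adjusted p below 0.05 with no fold limit, 10.5% of all tested genes were higher and 6.26% lower. By that rule the higher genes were 1 small heat shock protein, 1 HSP70 gene, 0 HSP90 genes, 2 co-chaperones, 2 targets and 1 ER gene. The lower genes were 1 HSP70 gene (HSP70B) and 1 target (HSA32), with 0 in the other lists. Of 16 small heat shock proteins, which hold unfolding proteins in solution, 6 were tested, 1 rose and none fell (6.46% and 1.37% of all tested genes), and the median log2FC was 0.16. Only 3 of the 6 were over the low-count filter in every library, and 0 of these 3 were called. The 10 untested genes had 0 to 131 counts over the 6 libraries. The gene that rose was HSP17.6 (AT1G59860), with 6, 4 and 6 counts in Col-0 and 29, 20 and 26 in 35S:RPS4, a log2FC of 2.32 (SE 0.35, edgeR adjusted p = 0.00296). HSP17.6 met the low-count filter through the 35S:RPS4 libraries alone. It failed the call with any Col-0 library left out (log2FC 2.39, 2.19 and 2.38 without replicates 1, 2 and 3) and with 35S:RPS4 replicate 3 left out (2.25). HSP17.6B had 14, 6 and 7 counts in Col-0 and 15, 83 and 5 in 35S:RPS4, so replicate 2 alone stood high. That library was the highest of its group in 9 of the 16 genes: HSP23.5 had 5, 107 and 6 counts in 35S:RPS4 and HSP17.4 had 1, 20 and 0. Summed without HSP15.4, the small heat shock proteins had 104, 102 and 120 counts in Col-0 and 123, 363 and 125 in 35S:RPS4, so the libraries other than 35S:RPS4 replicate 2 held 102 to 125. HSP15.4, set apart after its values were seen, had 2469 counts in Col-0 replicate 1, 1017 and 1207 in the other Col-0 libraries and 1019 to 1191 in 35S:RPS4, and HSP15.7 had a log2FC of -0.82 (adjusted p = 0.317).

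Among the 9 HSP70 genes outside the endoplasmic reticulum (ER), which fold new and damaged proteins, 1 rose and none fell, beside 6.46% and 1.37% of all tested genes, and the median log2FC was 0.17. HSC70-2 rose from 1.73 ± 0.624 to 13.7 ± 2.99 CPM, a log2FC of 2.98 (SE 0.28, edgeR adjusted p = 0.000431). HSP70B, a gene strongly induced by heat, had 133, 120 and 174 counts in Col-0 and 94, 66 and 59 in 35S:RPS4, the opposite direction. Its log2FC was -0.85 (adjusted p = 0.0267), and it was called as lowered without 35S:RPS4 replicate 1 (-1.06, adjusted p = 0.00793) and without both replicate 1 libraries (-1.12). The 8 genes not called had log2FC from -0.85 to 0.27, among them cpHSC70-1 (0.17) of the plastid and mtHSC70-1 (0.19) of the mitochondrion.

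None of the 6 HSP90 genes was called, by edgeR, limma voom or the DESeq2 Wald test, beside 7.83% of all tested genes called by edgeR. At an edgeR adjusted p below 0.05 with no fold limit 0 were higher and 0 lower, against 10.5% and 6.26% of all tested genes. HSP90 chaperones of the cytosol hold class A1 HSFs and immune receptors in check or in shape. The 6 genes had log2FC from -0.05 (HSP90.4) to 0.39 (HSP90.1), and their intervals reached from -0.33 to 0.90. HSP90.1, the heat-inducible member, had 92, 88 and 116 counts in Col-0 and 97, 160 and 103 in 35S:RPS4, where the groups overlapped. HSP90.5 (0.03) and HSP90.6 (0.08) changed sign under other scalings.

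Of 15 co-chaperones and ClpB disaggregases 2 rose and none fell, beside 6.46% and 1.37% of all tested genes, with a median log2FC of 0.07. J2, a J-domain partner of HSP70, rose from 33.4 ± 4.54 to 97.7 ± 14.5 CPM, a log2FC of 1.55 (SE 0.14, edgeR adjusted p = 0.000334). CHIP, a ubiquitin ligase that works with chaperones, went from 13.2 ± 0.307 to 26.6 ± 4.82 CPM with a log2FC of 1.01 (adjusted p = 0.002). That lies at the edge of the call: with the replicate number as a block the log2FC was 0.997 and CHIP was not called. It also failed in the fits without any 1 of Col-0 replicates 1 to 3 or 35S:RPS4 replicates 2 and 3, with values from 0.93 to 1.02. BAG6 (-0.39) and ROF2 (0.30), both heat-inducible, were not called. HSP101, the disaggregase needed for acquired heat tolerance and named here outside the rule, had 143, 109 and 125 counts in Col-0 and 95, 106 and 103 in 35S:RPS4, a log2FC of -0.19 with an interval of -0.54 to 0.15.

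**Figure D5:**
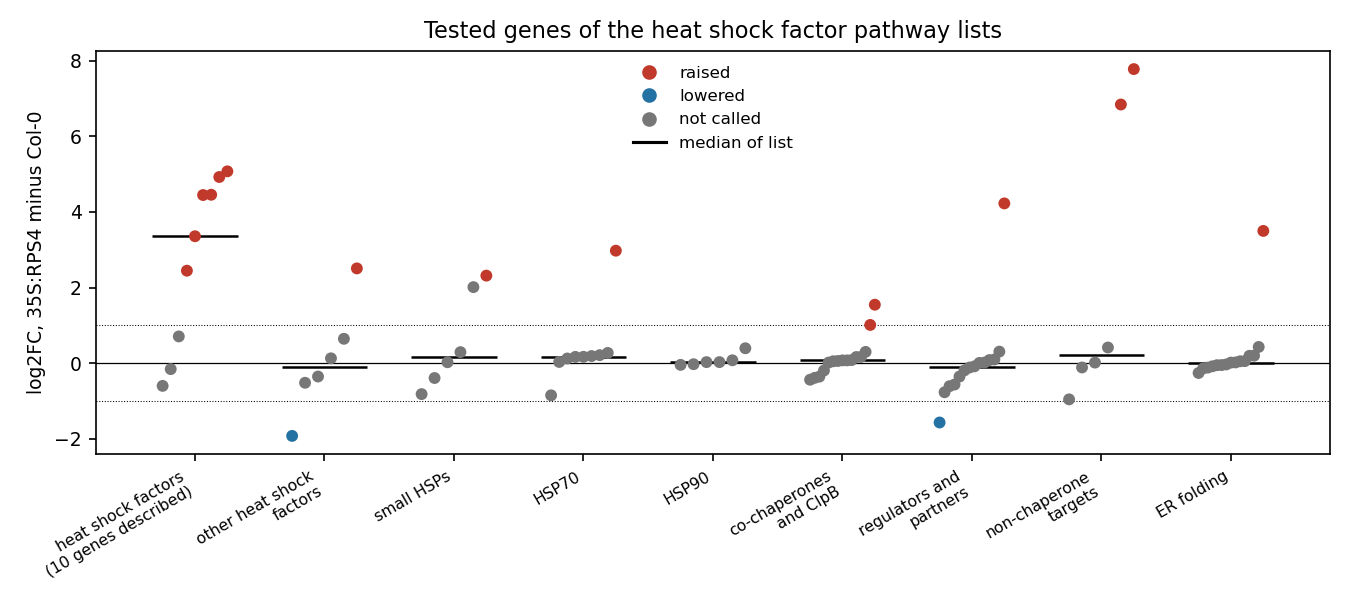
log2FC of 35S:RPS4 against Col-0 for each tested gene (points) of the HSF genes and of the lists of their targets and partners, with a bar at the median of each list and dotted lines at -1 and 1. The median is 3.36 for the 9 HSF genes described and lies between -0.11 and 0.21 for every other list shown. For the 7 of these 9 that were over the low-count filter in every library it is 2.45.

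Regulators and partners of HSFs included 1 gene of 14 that rose and 1 that fell, beside 6.46% and 1.37% of all tested genes, with a median log2FC of -0.10. MPK3, the kinase that phosphorylates HSFA4A, rose from 64.3 ± 14.2 to 1204 ± 292 CPM, a log2FC of 4.23 (SE 0.26, edgeR adjusted p = 9.38e-05). NF-YA2, a subunit of a CCAAT-binding complex that acts in the heat response, fell from 3.21 ± 0.480 to 1.08 ± 0.237 CPM with a log2FC of -1.57 (SE 0.23, edgeR adjusted p = 0.00289). It was not called without Col-0 replicate 3 (-1.55), 35S:RPS4 replicate 2 (-1.67) or 35S:RPS4 replicate 3 (-1.40). NF-YB3, another subunit, had an adjusted p of 0.00423 with a log2FC of -0.77, under the fold limit, and CBK3, a kinase that phosphorylates HSFA1A, had -0.35 (adjusted p = 0.0242).

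Of 8 targets of HSFs that are not chaperones 6 were tested and 2 rose, beside 6.46% of all tested genes, with a median log2FC of 0.21. Of the 5 over the low-count filter in every library 1 rose, and their median log2FC was 0.015. The 2 genes that rose, ZAT12 and ZAT6, were zinc finger repressors tied to oxidative stress. ZAT12 had 11, 9 and 23 counts in Col-0 and 1868, 3439 and 3439 in 35S:RPS4, a log2FC of 7.78 (SE 0.42, edgeR adjusted p = 6.88e-05), and met the low-count filter in all 3 libraries of 35S:RPS4 but only 2 of Col-0. ZAT6 rose from 2.94 ± 1.26 to 337 ± 85.4 CPM, with a log2FC of 6.84. HSA32, needed for long-lasting heat tolerance, had 44, 48 and 46 counts in Col-0 and 29, 22 and 15 in 35S:RPS4, all lower, with a log2FC of -0.96 (adjusted p = 0.0495). APX1, which removes hydrogen peroxide, had a log2FC of 0.41 with groups that overlapped.

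Of 16 ER folding genes 15 were tested, 1 rose and none fell, close to the 6.46% and 1.37% of all tested genes, with a median log2FC of 0.02. BZIP60, the transcription factor that reports unfolded proteins in the ER, had 359, 416 and 481 counts in Col-0 and 2357, 5136 and 5523 in 35S:RPS4. The genotypes were far apart, with replicate 1 lowest in both, from 13.4 ± 1.82 to 152 ± 64.4 CPM, with a log2FC interval of 2.65 to 4.35 (edgeR adjusted p = 0.000777). The 14 others had log2FC from -0.26 (HRD3A) to 0.43 (CRT3), with PDIL1-2 at 0.19.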

How the data were processed

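Polyadenylated RNA from leaves was sequenced from libraries made with the TruSeq RNA v2 kit. The authors deposited a table of read counts per gene with no normalization. The submitters' processing notes name TAIR10, FastQC 0.11.2, TopHat2 2.0.10 and HTSeq, without roles or settings; whether counting used strand is not given in the sources used here. Entries that name no gene held 6.45 to 8.30% of all counts and were set aside. Of 32678 genes, 31912 matched a TAIR10.1 locus, the source of positions, exon lengths and promoter sequence; TAIR10.1 was used with its own annotation only.

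The 6 libraries entered one edgeR fit (version 4.0.16, R 4.3.3) with genotype as its term, TMM factors, the default low-count filter (0.333 CPM in 3 libraries) and robust quasi-likelihood dispersions. Genes were called at a Benjamini-Hochberg adjusted p (FDR) below 0.01 over all 18382 tested genes and an absolute log2FC above 1, two-sided. CPM used the TMM library sizes. Alternatives were other size factors, no filter, DESeq2 1.42.0, limma voom (3.58.1), a replicate block, a looser threshold and leaving out libraries. The paired permutation of class shares and the counts of genes over the filter in every library were added after seeing the data. The code was tested on simulated data. Protein motifs were not analysed here.

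The HSF genes and the lists were chosen with earlier results of these data known. All HSF genes are named, and up to 4 tested genes per list with the smallest p; HSP101, HSP23.5 and HSP17.4 are exceptions chosen once their values were known. Whether a replicate is a plant, a pool or a repeat library is not in the labels, so the p-values cover only library-to-library spread, which may be technical. Within groups the chi-square was 8.06 to 38.1 per gene, so no library is a copy of another. Same-numbered libraries deviated together from their group means, with correlations across genes of 0.49, 0.21 and 0.32 for numbers 1 to 3, although Col-0 replicate 2 also correlated at 0.21 with 35S:RPS4 replicate 3 and Col-0 replicate 3 at 0.20 with 35S:RPS4 replicate 2. The pairing comes from this check, as the labels give only the numbers. Intervals on counts cover counting error only.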

Additional observations from a re-analysis of the deposited data

How the results depend on the processing

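The rises of HSFA4A, HSFA6B, HSFA8, HSFB2A and HSFB2B kept their direction and their call under all 15 alternatives. The number of HSF genes that rose was 5 to 6 when 1 library at a time was left out, and the number that fell was 0, or 1 at FDR below 0.05 with no fold limit. Over all genes that looser rule gave 1934 raised and 1150 lowered, the replicate block 1329 and 330, and the DESeq2 Wald test 1368 and 365. Leaving out 1 library gave 841 to 1374 raised and 99 to 337 lowered. Lowered genes numbered 391 with upper-quartile factors, 377 with plain library sizes and 404 without both replicate 1 libraries. Upper-quartile factors and plain library sizes moved the median log2FC of all genes to -0.17 and -0.16, from 0.01. They turned HSFA5 to -0.051 and -0.036, HSP90.5 to -0.15 and -0.14 and HSP90.6 to -0.10 and -0.089, and upper-quartile factors turned cpHSC70-1 to -0.010. Without both replicate 1 libraries HSP15.4 was at 0.11. With 1 library left out it ran from -0.60 to 0.077, HSP90.4 from -0.11 to 0.038 and HSP90.5 from -0.028 to 0.081. The causes were not tested.

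At FDR below 0.05 with no fold limit 10.5% of all tested genes were higher and 6.26% lower. By that rule 2 of the 6 tested other HSF genes rose and 1 fell. Of 9 HSP70 genes 1 rose and 1 fell, and of 14 regulators 1 rose and 3 fell. Of 6 tested non-chaperone targets 2 rose and 1 fell. Without both replicate 1 libraries 1 HSP70 gene fell, and with 1 library left out 0 to 1. Of the co-chaperones 1 rose with upper-quartile factors, plain library sizes, limma voom or the replicate block, and 1 to 2 with 1 library left out. Lowered regulators and raised small heat shock proteins numbered 0 to 1 with 1 library left out. The replicate block changed no call other than that of CHIP among the genes named. With all HSF genes, class A1 held 26.6% in Col-0, and class B 6.57% in Col-0 and 13.0% in 35S:RPS4; with no length scaling class B held 14.8% in 35S:RPS4. The counts of HSFA2 and HSP17.6 are too low to size a change well. The untested genes did not pass the low-count filter, and the part of depth in that was not tested.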
